A study of Homo sapiens with 32 samples.

Results

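The comparison described here is the early transcript response of the human lymphoma line DOHH2 to inhibition of the kinase CSK. Its members are the 4 DOHH2 libraries collected at 3 h, 2 after 500 nM of the CSK inhibitor (CSKi) and 2 after the vehicle DMSO, out of 32 libraries in the series. Transcripts were described for the 11571 of 25066 table features whose mean log2 value over these 4 libraries was 5 or more. The other libraries used were the DOHH2 pairs with CSKi and DMSO at 1 and 6 h, and the matching pairs of the line TMD8 at 3 h. The TMD8 pairs at 1 and 6 h served only to estimate spread in the fit of both lines. Every group had 2 libraries. All of these cells, those given DMSO included, carry the genotype label "Cas9 engineered" and are labelled as lines of diffuse large B-cell lymphoma, and no knockout is named. DOHH2 is classed as germinal-centre-like lymphoma and TMD8 as activated-B-cell-like. The duplicates are called bio replicates, and nothing further says that they were separate cultures, so p-values measure the spread between these libraries.

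CSK (C-terminal Src kinase) holds LYN, BLK, FYN and other Src family kinases in an inactive fold by phosphorylating a tyrosine near their C-terminal end. In B cells, Src family kinases phosphorylate both the activating chains of the B cell receptor, CD79A and CD79B, and the inhibitory tails of coreceptors such as CD22 and CD72, which recruit the phosphatase PTPN6 (SHP-1). Downstream of the receptor, PI3K and AKT keep FOXO transcription factors out of the nucleus, and the ERK pathway drives immediate early genes such as EGR1. The comparison asks which transcripts differ 3 h after this brake on Src family kinases is inhibited.

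The 4 libraries held 16882184 and 19406543 mapped reads with CSKi, and 19902576 and 18724391 with DMSO, and 22.2 reads was the lowest mean count of a tested gene. The deposited values are log2 of scaled read counts, with 1 scaling factor per library. Levels below are on that scale, and a difference is log2, CSKi minus DMSO, with the standard error (SE) of a limma fit and 2 libraries per group. All 7 B cell markers and all 6 germinal centre B cell markers passed the level filter. Their summed levels on the linear scale were 51100 and 53100 with CSKi against 48900 and 49200 with DMSO for the B cell markers, and 28200 and 28000 with CSKi against 23300 and 23200 with DMSO for the germinal centre markers. The latter sum follows its most abundant members, MME and GCSAM, which rose. Of the other germinal centre markers, BCL6 and LMO2 fell and 2 were not called. Of 9 T and NK cell markers, 4 had no read in any of the 4 libraries and 1, NKG7, passed the filter. Of 8 myeloid markers, 4 had no read and LYZ passed, and of 11 fibroblast and epithelial markers, 7 had no read and PDGFRB passed. In bulk RNA, fewer cells of a type and less RNA per cell cannot be told apart. Libraries of a pair correlated across genes with r = 0.9964 for CSKi and 0.997 for DMSO, and libraries of different treatment with r from 0.9934 to 0.9941. Both pairs differed by more than sampling noise (chi-square per degree of freedom 2.51 for CSKi and 1.55 for DMSO), so each library was counted. The DOHH2 libraries at 24 h were left out, because the one labelled CSKi replicate 2 lay closer to DMSO replicate 1 (SD of the log2 difference 0.197) than to CSKi replicate 1 (0.362).

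After 3 h of CSKi, 873 genes (7.54% of those tested) rose and 874 (7.55%) fell at an adjusted p under 0.05 by limma with Benjamini-Hochberg adjustment over 11571 genes, 15.1% in either direction. Most changes were small. The median difference was 0.27 among genes that rose and -0.24 among those that fell. At least 1.5-fold changes were seen for 104 risen (0.899%) and 72 fallen genes (0.622%), and at least 2-fold changes for 19 risen and 11 fallen genes. The CSKi and DMSO values overlapped for 1 of the risen and 1 of the fallen genes, so separated pairs add little to the call of a gene. Over all tested genes, both CSKi values lay above both DMSO values for 26.8% and below them for 28.3%. When each library was scaled to its total mapped reads, the split was 739 risen and 1121 fallen. Leaving out DMSO replicate 1 or DMSO replicate 2 gave 513 or 570 risen genes. Leaving out CSKi replicate 1, DMSO replicate 1 or DMSO replicate 2 gave 515, 452 or 451 fallen genes.

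**Figure D1:**
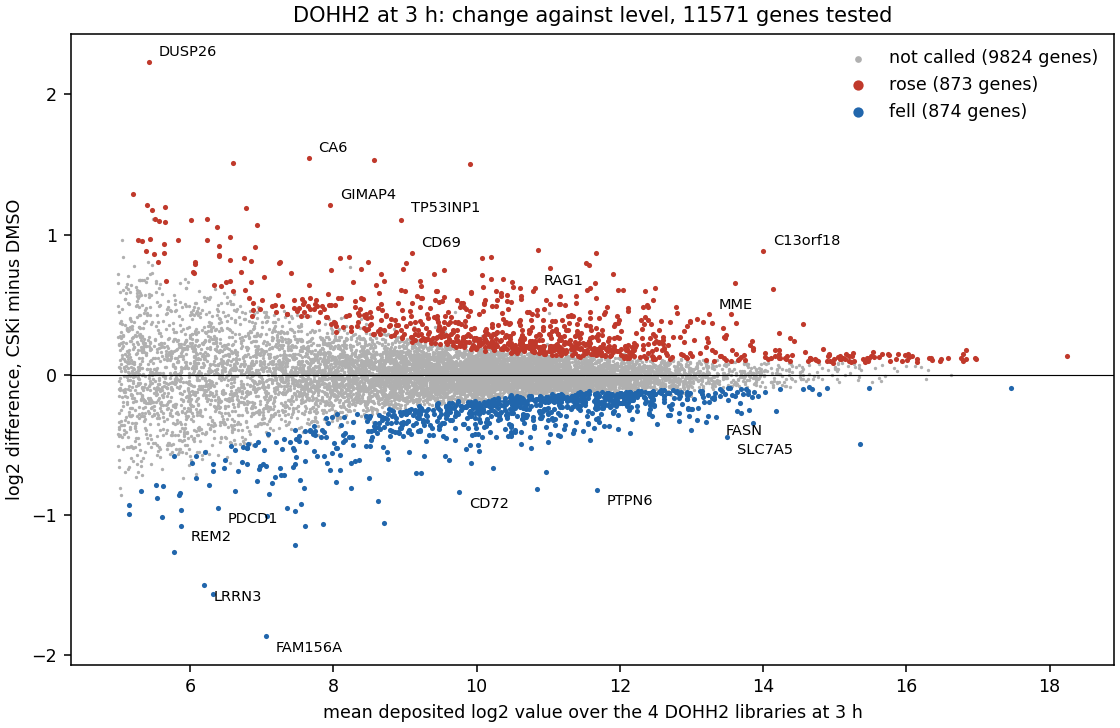
Log2 difference between CSKi and DMSO in DOHH2 at 3 h (vertical axis) against the mean deposited log2 value over the 4 libraries (horizontal axis), with 1 point per tested gene. Red points are the 873 genes that rose, blue points the 874 that fell and grey points the 9824 that were not called; WASF3 stands at 1.503 and C20orf112 at -1.06.

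WASF3, an actin regulator of the WAVE family, was among the 10 largest increases. It had log2 values of 10.67 and 10.65 with CSKi and 9.14 and 9.17 with DMSO, from 1008 and 1142 reads with CSKi and 418 and 401 with DMSO, a 2.83-fold rise (1.503 ± 0.07, adjusted p = 2.89e-14 by limma). The 10 largest changes each way were taken among genes with separated pairs, so the separation of these genes was set by the rule. FLJ23834, now named CDHR3 and encoding a cadherin, stood at 9.32 and 9.37 with CSKi and 7.94 and 7.68 with DMSO (1.53 ± 0.10, adjusted p = 5.05e-11). Its pairs did not overlap, as the same rule required.

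The other large increases were in genes with fewer reads. The carbonic anhydrase gene CA6 had 207 and 255 reads with CSKi and 83 and 87 with DMSO, a 2.93-fold rise. DUSP26, which encodes a phosphatase of MAP kinases, had the highest fold change, 4.69-fold, on 59 and 65 reads with CSKi and 12 and 17 with DMSO. Every CSKi count of these genes was above every DMSO count, a separation that the rule for naming them required. TMCC2, a transmembrane coiled-coil gene (1.51 ± 0.23), the immune GTPase gene GIMAP4 (1.21 ± 0.12) and TCP11L2 (1.19 ± 0.22, and 0.76 without DMSO replicate 2) rose too. So did GIMAP6 (1.11 ± 0.21), a relative of GIMAP4 picked out after its value was seen.

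The remaining 3 of the 10 largest increases needed single libraries for their calls. FBXO32, a ubiquitin ligase gene and FOXO target of muscle, was at 1.29 ± 0.34, with an adjusted p of 0.0684 without CSKi replicate 2 and 0.126 without DMSO replicate 1 (limma). The adhesion gene AMICA1 (JAML) was at 1.21 ± 0.34, with 0.142 without CSKi replicate 2 and 0.181 without DMSO replicate 2. LOC152225 (RDUR) was at 1.19 ± 0.27, with 0.0719 without DMSO replicate 2.

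Some of the changes with the smallest p were in abundant genes. C13orf18, now RUBCNL and encoding an autophagy regulator, had values of 14.42 and 14.46 with CSKi and 13.55 and 13.56 with DMSO, a 1.85-fold rise (0.88 ± 0.03, adjusted p = 1.99e-15 by limma). USP53 (0.87 ± 0.05), TAGAP, a GTPase regulator of lymphocytes (0.89 ± 0.05), PIK3CG, a catalytic subunit of PI3K (0.68 ± 0.07), and HBP1, a repressor of cell cycle entry (0.69 ± 0.06), rose as well. These 5 genes were picked out after their values were seen.

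Among the genes that fell, C20orf112 (now NOL4L) had values of 7.29 and 7.37 with CSKi and 8.39 and 8.39 with DMSO, a 2.09-fold fall (-1.06 ± 0.09, adjusted p = 4.71e-09 by limma). AHDC1, which encodes a DNA-binding protein, had 7.91 and 8.44 with CSKi and 9.20 and 9.27 with DMSO (-1.06 ± 0.11). In both genes every CSKi value was below every DMSO value, as the rule for naming them required. The AHDC1 pair with CSKi was wider than its pair with DMSO. LRRN3, a leucine-rich repeat membrane protein gene, fell 2.84-fold on 31 and 27 reads with CSKi and 82 and 96 with DMSO. PLEKHH3 (-1.08 ± 0.14), the forkhead gene FOXO6 (-1.27 ± 0.22), the small GTPase gene REM2 (-1.08 ± 0.24) and CCDC107 (-1.02 ± 0.22) also fell.

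The other 3 of the 10 largest decreases are less certain. FAM156A, which has a near-identical copy that can share its reads, had values of 4.50 and 7.75 with CSKi and 7.97 and 8.01 with DMSO, so 1 library set its difference of -1.87 ± 0.49. Without CSKi replicate 1 it was -0.24 (adjusted p = 0.435 by limma), without CSKi replicate 2 it was -3.49, and without DMSO replicate 1 or 2 the adjusted p was 0.0522 or 0.0581. NPIPL3 (NPIPB3), a member of a multicopy family, was at -1.22 ± 0.24, and at -0.66 without CSKi replicate 2. LOC728888, with no current symbol in the table used, was at -1.56 ± 0.34.

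CSK itself and LYN were slightly lower with CSKi. CSK had values of 13.01 and 13.14 with CSKi and 13.22 and 13.25 with DMSO (-0.16 ± 0.04, adjusted p = 0.0059 by limma). LYN had 12.34 and 12.36 with CSKi and 12.46 and 12.51 with DMSO (-0.13 ± 0.04, adjusted p = 0.0313). In both genes the CSKi values were below the DMSO values, and the CSKi pair of CSK was wider than the gap between the treatments. The CSK call was lost without CSKi replicate 1 (-0.10, adjusted p = 0.183) or DMSO replicate 2 (-0.15, 0.071). The LYN call was lost without CSKi replicate 1, CSKi replicate 2, DMSO replicate 1 or DMSO replicate 2 (adjusted p 0.139, 0.0776, 0.0607 and 0.265).

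PTPN6, the phosphatase recruited by inhibitory B cell receptors, fell 1.77-fold. Its values were 11.26 and 11.28 with CSKi and 12.08 and 12.10 with DMSO (-0.82 ± 0.05, adjusted p = 4.25e-11 by limma). The libraries of each pair were nearly equal and the pairs far apart. The list of Src family kinases and their regulators had 21 tested members, of which 4 rose and 8 fell (median -0.03), against a median of -0.002 over all genes tested. Counts of this and every other list stand beside 7.54% risen and 7.55% fallen over all genes tested. The kinase gene BLK (0.31 ± 0.04) and the receptor phosphatase gene PTPRE (0.58 ± 0.07) rose, as did PTPRC, which encodes CD45, a phosphatase that removes the tail phosphate (0.16 ± 0.04). The adaptor gene DOK3 (-0.20 ± 0.03) and the ubiquitin ligase gene CBL (-0.24 ± 0.05) fell. FYN (-0.07 ± 0.08, adjusted p = 0.662) did not pass the test. The fallen count was 3 without CSKi replicate 1 and 3 without DMSO replicate 2.

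Most genes of the B cell receptor pathway were not called. Of 26 tested members, 5 rose, 3 fell and 18 were not called (median 0.02), beside 7.54% risen and 7.55% fallen over all genes tested. CD79B, a signalling chain of the receptor, had values of 13.75 and 13.78 with CSKi and 13.33 and 13.34 with DMSO (0.43 ± 0.04, adjusted p = 3.64e-09 by limma), with the treatments well apart. Its partner CD79A was at -0.05 ± 0.04 (adjusted p = 0.451). SYK, the kinase that binds both chains, rose (0.18 ± 0.03), as did the exchange factor gene VAV2 (0.28 ± 0.06). PIK3AP1 (BCAP), an adaptor to PI3K (-0.32 ± 0.03), and the RAS exchange factor gene SOS1 (-0.39 ± 0.05) fell. BTK (0.03 ± 0.03), BLNK (0.03 ± 0.04) and PLCG2 (-0.10 ± 0.04) did not pass the test.

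The list of inhibitory receptor genes of B cells, which also holds FCRL family genes, had members lower more often than higher. Of 16 tested members, 2 rose and 6 fell (median -0.16), beside 7.54% risen and 7.55% fallen over all genes tested. CD72 had values of 9.30 and 9.38 with CSKi and 10.06 and 10.29 with DMSO, a 1.79-fold fall (-0.84 ± 0.07, adjusted p = 8.17e-09 by limma). The lowest DMSO value was well above the highest CSKi value. CD22 (-0.24 ± 0.04), the inhibitory Fc receptor gene FCGR2B (-0.61 ± 0.10), FCRLA (-0.30 ± 0.04) and LILRB4 (-0.81 ± 0.15) fell as well. PDCD1, which encodes the checkpoint receptor PD-1, was at 5.82 and 6.01 with CSKi and 6.62 and 7.11 with DMSO (-0.95 ± 0.21). Without DMSO replicate 2 its difference was -0.70 (adjusted p = 0.0956).

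LAIR1 (0.54 ± 0.14) and FCRL1 (0.21 ± 0.05), a member of the FCRL family, were the 2 members of this list that rose. The risen count was 0 without CSKi replicate 2 (adjusted p 0.0698 and 0.0608 by limma), and 1 without either DMSO library, where LAIR1 had 0.0693 without replicate 1 and FCRL1 0.12 without replicate 2.

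**Figure D2:**
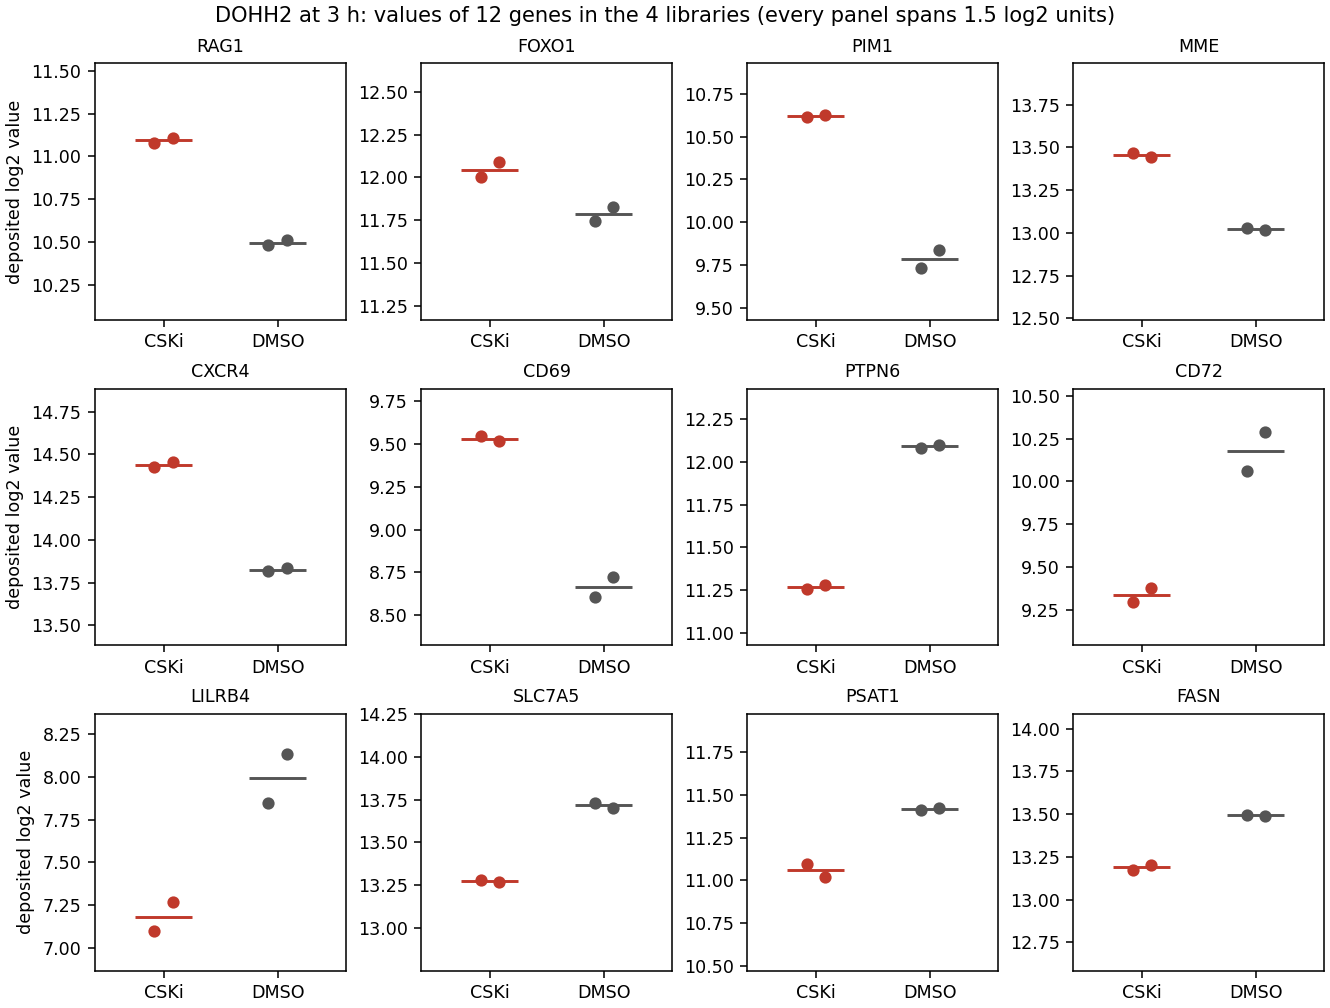
Deposited log2 values (vertical axis) of 12 genes in the 2 CSKi and 2 DMSO libraries of DOHH2 at 3 h, CSKi left of DMSO, with 1 point per library; every panel spans 1.5 log2 units. In the 12 panels the pairs do not overlap, with PTPN6, CD72, LILRB4, SLC7A5, PSAT1 and FASN lower with CSKi and the other 6 genes higher. All 12 were called genes, and pairs overlapped for only 1 of the 873 risen and 1 of the 874 fallen genes. Over all tested genes, both CSKi values lay above both DMSO values for 26.8% and below them for 28.3%.

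Most FOXO factors and FOXO target genes tested rose, with 19 tested members, of which 12 rose and 2 fell (median 0.25). RAG1, a recombinase gene that FOXO1 activates in developing B cells, had values of 11.08 and 11.11 with CSKi and 10.48 and 10.51 with DMSO, a 1.51-fold rise (0.60 ± 0.05, adjusted p = 7.8e-09 by limma). Both pairs were tight and did not overlap. Its partner RAG2 was at 8.02 and 7.93 with CSKi and 7.42 and 7.25 with DMSO (0.64 ± 0.13, adjusted p = 0.000763).

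Of the FOXO factor genes, FOXO1 had values of 12.003 and 12.09 with CSKi and 11.75 and 11.83 with DMSO (0.26 ± 0.05, adjusted p = 0.00023 by limma) and FOXO4 rose (0.40 ± 0.09), while FOXO3 was at 0.14 ± 0.06 (adjusted p = 0.142). FOXO6, which is not on the list, fell (-1.27 ± 0.22), as given above. The growth arrest gene GADD45A (0.56 ± 0.06), the cyclin G2 gene CCNG2 (0.39 ± 0.06) and PIK3IP1, which encodes an inhibitor of PI3K (0.40 ± 0.08), rose. BCL6, the germinal centre repressor, fell (-0.28 ± 0.05), and TXNIP (-0.03 ± 0.05) and KLF2 (0.00 ± 0.23) did not pass the test. The risen count was 8, 8 and 8 without CSKi replicate 2, DMSO replicate 1 and DMSO replicate 2. The fallen count was 1 and 1 without CSKi replicate 1 and DMSO replicate 1.

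The forkhead motif GTAAACA was looked for on both strands in the 250 bases before the annotated start (RefSeq, GRCh38.p14). It lay in 1 of the 11 risen FOXO list members with a promoter in the table, BCL2L11, against 1.88% of 9021 tested genes with one and 2.98% of all 27305 promoters. BCL2L11, the proapoptotic gene of BIM, was at 0.14 ± 0.04 (adjusted p = 0.0293 by limma), and its call was lost without CSKi replicate 1 (0.0756), CSKi replicate 2 (0.136), DMSO replicate 1 (0.157) or DMSO replicate 2 (0.123).

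The list named for KLF, ID and BTG factors, which also holds TOB, YPEL and CXXC5 genes, had 14 tested members. Of these, 3 rose and 7 fell (median -0.10), beside 7.54% risen and 7.55% fallen over all genes tested. BTG1 (0.36 ± 0.05), YPEL3 (0.76 ± 0.10) and YPEL5 (0.32 ± 0.06) rose. KLF13 (-0.35 ± 0.05), TOB2 (-0.36 ± 0.07), BTG2 (-0.17 ± 0.04) and ID2, an inhibitor of E proteins (-0.54 ± 0.11), fell. The fallen count was 4 without CSKi replicate 1 and 4 without DMSO replicate 2.

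None of the tested genes of the ATF4 and amino acid response rose and most fell, with 31 tested members, of which 0 rose and 19 fell (median -0.18). ATF4 is the transcription factor that couples amino acid supply to transporters, synthesis enzymes and tRNA synthetases. SLC7A5, a transporter of large neutral amino acids, had values of 13.28 and 13.27 with CSKi and 13.73 and 13.70 with DMSO, a 1.36-fold fall (-0.44 ± 0.04, adjusted p = 1.08e-09 by limma). The tryptophan tRNA synthetase gene WARS had 13.05 and 13.01 with CSKi and 13.36 and 13.38 with DMSO (-0.34 ± 0.04, adjusted p = 1.41e-07). In both genes the gap between the treatments was several times the spread within them. When 1 library was left out, 13 to 16 members fell. No member rose by voom on the recovered reads, and 0 were higher at an unadjusted p under 0.05.

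The methionine and alanine tRNA synthetase genes MARS (-0.33 ± 0.04) and AARS (-0.24 ± 0.03) fell likewise. In serine and asparagine synthesis, PSAT1 had values of 11.10 and 11.02 with CSKi and 11.41 and 11.42 with DMSO (-0.36 ± 0.05), and PHGDH (-0.18 ± 0.04) and ASNS (-0.23 ± 0.04) also fell. The regulators ATF5 (-0.29 ± 0.05) and TRIB3 (-0.35 ± 0.07) fell. ATF4 itself was at 0.04 ± 0.03 (adjusted p = 0.414 by limma), and the stress genes DDIT3 (-0.08 ± 0.10), DDIT4 (-0.13 ± 0.05) and CHAC1 (0.25 ± 0.16) did not pass the test.

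The amino acid response motif TGATGNAA was found on either strand in the 250 bases before the start of 2 of the 18 fallen ATF4 list members with a promoter in the RefSeq table, against 1.34% of 9021 tested genes and 3.19% of all 27305 promoters. The promoter of ASNS, one of these genes, is shown because the gene fell and its promoter holds the motif, which is in capitals. The window lies at chr7:97872409-97872658 of GRCh38.p14, on the minus strand, and is written 5′ to 3′ on the strand of the gene.
ASNS: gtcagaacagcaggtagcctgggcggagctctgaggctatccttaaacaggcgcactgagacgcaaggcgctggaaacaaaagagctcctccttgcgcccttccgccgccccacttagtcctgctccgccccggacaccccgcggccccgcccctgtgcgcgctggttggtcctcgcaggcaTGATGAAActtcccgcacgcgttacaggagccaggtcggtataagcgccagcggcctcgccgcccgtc
The match begins 68 bases before the start. A match describes these letters only and shows no binding.

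Heat shock genes had 14 tested members, of which 0 rose and 6 fell (median -0.11). HSPA8, the constitutive HSP70 chaperone, had values of 15.14 and 15.07 with CSKi and 15.63 and 15.57 with DMSO (-0.49 ± 0.03, adjusted p = 2.11e-11 by limma), with no overlap. The cochaperone genes DNAJA1 (-0.35 ± 0.04) and DNAJB1 (-0.34 ± 0.05) and the HSP110 gene HSPH1 (-0.39 ± 0.04) fell too. The count was 4 without DMSO replicate 1, and 0 members were higher at an unadjusted p under 0.05 or rose by voom.

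Genes of cholesterol and fatty acid synthesis had 30 tested members, of which 0 rose and 10 fell (median -0.07). FASN, the fatty acid synthase, was at 13.18 and 13.20 with CSKi and 13.50 and 13.49 with DMSO (-0.30 ± 0.04, adjusted p = 7.97e-06 by limma), with no overlap. The desaturase genes SCD (-0.24 ± 0.03) and FADS2 (-0.31 ± 0.05) and the lipid regulator SREBF1 (-0.51 ± 0.09) fell. HMGCS1, of the early cholesterol pathway (-0.08 ± 0.04), and INSIG1, a regulator of sterol synthesis (0.12 ± 0.05), did not pass the test. The fallen count was 6 without CSKi replicate 2, and 5 and 5 without DMSO replicates 1 and 2. Of the members, 1 was higher at an unadjusted p under 0.05 and 0 rose by voom.

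**Figure D3:**
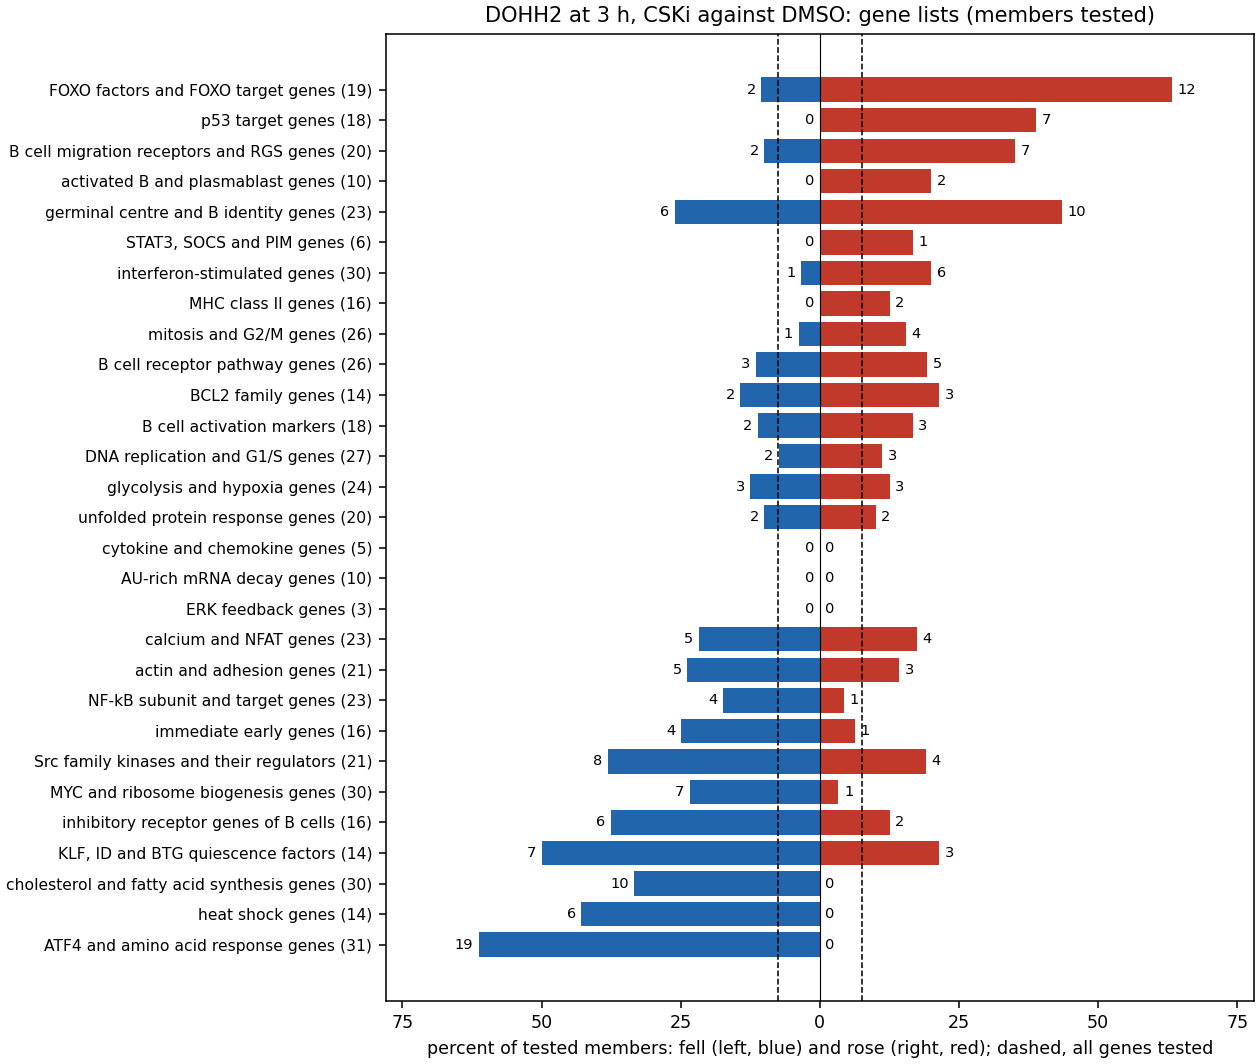
Percent of the tested members of each gene list that rose (right) or fell (left) in DOHH2 at 3 h; dashed lines mark 7.54% risen and 7.55% fallen over all tested genes. The FOXO list has 12 of 19 members risen and the ATF4 and amino acid list 19 of 31 fallen.

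Germinal centre and B cell identity genes changed in both directions, with 23 tested members, of which 10 rose and 6 fell (median 0.11). CXCR4, the chemokine receptor of the germinal centre dark zone, had values of 14.42 and 14.45 with CSKi and 13.82 and 13.83 with DMSO, a 1.53-fold rise (0.61 ± 0.03, adjusted p = 6.4e-14 by limma). MME, which encodes the germinal centre marker CD10, was at 13.47 and 13.44 with CSKi and 13.03 and 13.02 with DMSO (0.43 ± 0.04, adjusted p = 5.31e-09 by limma). Both genes separated the treatments completely. GCET2 (GCSAM, 0.37 ± 0.03), the repressor gene BACH2 (0.30 ± 0.03) and the coactivator gene POU2AF1 (0.24 ± 0.03) rose. The Ets factor gene SPIB (-0.38 ± 0.04) and the elongation factor gene ELL3 (-0.37 ± 0.05) fell, as did BCL6 above. Outside this list, MS4A1, which encodes CD20, fell (-0.27 ± 0.04) and CD37, a tetraspanin of B cells, rose (0.36 ± 0.04).

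SERPINA9 (-0.46 ± 0.10) and LMO2 (-0.32 ± 0.09), both germinal centre markers, fell, but not in every subset of libraries. Without CSKi replicate 1 they were at -0.27 (adjusted p = 0.096 by limma) and -0.21 (0.221), and without DMSO replicate 2 LMO2 was at -0.24 (0.217). The fallen count of the list was 3 without CSKi replicate 1 and 4 without DMSO replicate 2.

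Activation markers had 18 tested members, of which 3 rose and 2 fell (median -0.07). CD69, an early activation antigen, had values of 9.55 and 9.52 with CSKi and 8.60 and 8.72 with DMSO, a 1.83-fold rise (0.87 ± 0.07, adjusted p = 3.57e-09 by limma). CD38 (0.32 ± 0.05) and the interleukin-2 receptor gene IL2RA (0.80 ± 0.18) rose, and the adhesion ligand gene CD58 fell (-0.59 ± 0.13). CD83 (0.01 ± 0.08) and CD86 (-0.16 ± 0.09) did not pass the test. Without DMSO replicate 1, the fallen count was 1. The kinase gene PIM1 had values of 10.61 and 10.63 with CSKi and 9.73 and 9.84 with DMSO (0.84 ± 0.06, adjusted p = 1.82e-10), with no overlap. It was the 1 gene called among 6 tested of the STAT3, SOCS and PIM list.

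Migration receptor and RGS genes had 20 tested members, of which 7 rose and 2 fell (median 0.08), beside 7.54% risen and 7.55% fallen over all genes tested. Lists share members, so their counts are not independent. Of the 7, CXCR4, S1PR1 and CCR7 are also counted as risen in the germinal centre, FOXO and NF-kB lists. RGS genes, which damp signalling by G protein-coupled receptors, split by member, as RGS2 (0.52 ± 0.08) and RGS16 (0.43 ± 0.06) rose and RGS19 fell (-0.42 ± 0.05). The sphingosine phosphate receptor gene S1PR4 rose (0.38 ± 0.07), and P2RY8, a receptor that confines germinal centre B cells, fell (-0.26 ± 0.04). The risen count was 4 without CSKi replicate 2 and 4 without DMSO replicate 2. Actin and adhesion genes had 21 tested members, of which 3 rose and 5 fell (median -0.03). The integrin genes ITGB1 (0.37 ± 0.03) and ITGA4 (0.40 ± 0.05) and the WAVE complex gene ABI1 (0.39 ± 0.04) rose, and the integrin activator gene FERMT3 fell (-0.28 ± 0.04). The fallen count of these genes was 3, 3, 3 and 2 without CSKi replicate 1, CSKi replicate 2, DMSO replicate 1 and DMSO replicate 2.

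Genes activated by p53 had 18 tested members, of which 7 rose and 0 fell (median 0.11). Of the risen, SESN1 is also counted in the FOXO list. TP53INP1, which promotes cell cycle arrest and autophagy, had values of 9.46 and 9.54 with CSKi and 8.34 and 8.44 with DMSO, a 2.15-fold rise (1.11 ± 0.10, adjusted p = 2.58e-08 by limma). The treatments did not overlap. RRM2B, a ribonucleotide reductase gene (0.57 ± 0.07), the DNA repair gene XPC (0.26 ± 0.04) and MDM2 (0.27 ± 0.05) rose, while CDKN1A (-0.18 ± 0.10) and BBC3 (0.11 ± 0.11) did not pass the test. The risen count was 4 without DMSO replicate 2, and 1 member was lower at an unadjusted p under 0.05 and 0 fell by voom. In the BCL2 family, with 14 tested members, of which 3 rose and 2 fell (median 0.07), the proapoptotic gene PMAIP1 (NOXA) had values of 12.40 and 12.28 with CSKi and 11.73 and 11.74 with DMSO (0.60 ± 0.04). BCL2 (0.09 ± 0.04), MCL1 (0.03 ± 0.04) and BCL2L1 (-0.01 ± 0.08) did not pass. The risen count of this family was 1, 1 and 2 without CSKi replicate 2, DMSO replicate 1 and DMSO replicate 2, and the fallen count 1, 1, 0 and 1 in the order of the libraries CSKi 1, CSKi 2, DMSO 1 and DMSO 2.

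Most proliferation and growth genes were not called, where 15.1% of all genes tested were called in either direction. The replication and mitosis counts lay near that share. DNA replication and G1/S genes had 27 tested members, of which 3 rose and 2 fell (median 0.05), and mitosis genes 26 tested members, of which 4 rose and 1 fell (median 0.07), with E2F1 (0.21 ± 0.04) and the phosphatase gene CDC25C (0.60 ± 0.08) among the risen and the anaphase activator gene CDC20 fallen (-0.20 ± 0.04). The fallen replication count was 1 without CSKi replicate 1, and the risen mitosis count was 1, 2 and 1 without CSKi replicate 1, DMSO replicate 1 and DMSO replicate 2. MYC had values of 13.64 and 13.62 with CSKi and 13.66 and 13.66 with DMSO (-0.03 ± 0.04, adjusted p = 0.66 by limma), so the 4 values were nearly equal. The MYC and ribosome biogenesis list had 30 tested members, of which 1 rose and 7 fell (median -0.08). Its fallen count was 2, 4, 0 and 2 without CSKi replicate 1, CSKi replicate 2, DMSO replicate 1 and DMSO replicate 2. NPM1, the 1 member that rose (0.10 ± 0.03), lay slightly below 0 under quantile normalization and was not called without CSKi replicate 1, DMSO replicate 1 or DMSO replicate 2 (adjusted p 0.378, 0.205 and 0.122).

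Interferon-stimulated genes had 30 tested members, of which 6 rose and 1 fell (median 0.25), and the 2 CSKi libraries differed for them. The risen count was 0 without CSKi replicate 1, 24 without CSKi replicate 2, 3 without DMSO replicate 1 and 2 without DMSO replicate 2. The fallen count was 0 without CSKi replicate 2 or either DMSO library. CMPK2, a mitochondrial nucleotide kinase gene induced by interferon, had values of 9.24 and 8.60 with CSKi and 8.34 and 8.22 with DMSO (0.64 ± 0.16). IFITM1, which encodes an antiviral membrane protein, had 11.73 and 11.25 with CSKi and 11.09 and 11.05 with DMSO (0.42 ± 0.09). In both, CSKi replicate 1 alone stood high, and without it CMPK2 was at 0.32 (adjusted p = 0.231 by limma) and IFITM1 at 0.18 (0.156). Without CSKi replicate 2 they were at 0.96 and 0.66. Without DMSO replicate 2, CMPK2 had an adjusted p of 0.0631.

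LYZ, the myeloid marker above the level filter, rose (0.51 ± 0.14), and PDGFRB, the stromal one, fell (-0.67 ± 0.14), on 170 and 170 reads with CSKi and 135 and 124 with DMSO and on 65 and 100 reads with CSKi and 144 and 133 with DMSO. LYZ did not pass without CSKi replicate 1, DMSO replicate 1 or DMSO replicate 2 (adjusted p 0.143, 0.0625 and 0.0795 by limma), nor PDGFRB without CSKi replicate 1 (0.0593). LYZ and PDGFRB make up most of the summed levels of their lists. The summed levels of the marker lists were 292 and 258 with CSKi against 199 and 198 with DMSO for myeloid cells, 110 and 150 with CSKi against 199 and 200 with DMSO for fibroblasts and epithelium, and 93.6 and 119 with CSKi against 126 and 111 with DMSO for T and NK cells. Their part in the other results was not tested.

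Of the remaining lists, NF-kB genes had 23 tested members, of which 1 rose and 4 fell (median 0.03), and the fallen count was 0, 1 and 1 without CSKi replicate 1, DMSO replicate 1 and DMSO replicate 2. The 1 risen NF-kB gene, the chemokine receptor gene CCR7 (0.42 ± 0.14), was not called without CSKi replicate 1, CSKi replicate 2, DMSO replicate 1 or DMSO replicate 2 (adjusted p 0.107, 0.193, 0.162 and 0.17 by limma). Calcium and NFAT genes had 23 tested members, of which 4 rose and 5 fell (median 0.00), beside 7.54% risen and 7.55% fallen over all genes tested. The calcium sensor gene STIM2 (0.43 ± 0.04) and the calcium channel gene ITPR1 (0.51 ± 0.07) were among the risen calcium and NFAT genes. Their fallen count was 0, 1 and 0 without CSKi replicate 1, DMSO replicate 1 and DMSO replicate 2, and the risen count 2 without DMSO replicate 1. Unfolded protein response genes had 20 tested members, of which 2 rose and 2 fell (median -0.02), and the 2 fallen ones became 1, 0, 1 and 0 without CSKi 1, CSKi 2, DMSO 1 and DMSO 2. Glycolysis and hypoxia genes had 24 tested members, of which 3 rose and 3 fell (median -0.05), and 1 member fell without CSKi 2, DMSO 1 or DMSO 2. MHC class II genes had 16 tested members, of which 2 rose and 0 fell (median 0.02), with 1 risen without CSKi 2, DMSO 1 or DMSO 2, and activated B cell and plasmablast genes had 10 tested members, of which 2 rose and 0 fell (median 0.06). Cytokine and chemokine genes had 5 tested members, of which 0 rose and 0 fell (median 0.13), and genes of AU-rich mRNA decay 10 tested members, of which 0 rose and 0 fell (median -0.02). Of each of these last lists, 1 member was higher at an unadjusted p under 0.05, and 0 were called by voom.

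Immediate early genes were low at 1 h and mostly not called at 3 h. At 1 h, 10 of 16 tested members fell with CSKi and 0 rose (median -0.58), where 1.28% of all genes fell and 0.847% rose. At 3 h, 4 fell and 1 rose (median -0.02), and the fallen count was 2 without DMSO replicate 1 and 2 without DMSO replicate 2, and the risen count 0 without DMSO replicate 1. EGR1, a zinc finger factor, had 40 and 31 reads with CSKi and 230 and 211 with DMSO at 1 h (-2.48 ± 0.29). At 3 h it had 38 and 37 reads with CSKi and 20 and 27 with DMSO (0.80 ± 0.29, adjusted p = 0.061 by limma). The CSKi libraries were the lower ones at 1 h and the higher ones at 3 h. EGR2 was at -2.61 ± 0.20 at 1 h and 0.02 ± 0.20 at 3 h, and EGR3 at -4.88 ± 0.38 and -0.10 ± 0.38. EGR3 had 8 and 11 reads with CSKi and 312 and 304 with DMSO at 1 h and 21 and 23 reads with CSKi and 25 and 26 with DMSO at 3 h, so DMSO levels also differed between these times.

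The signed 3 h response minus the 1 h response was 3.29 ± 0.41 for EGR1, 2.63 ± 0.28 for EGR2 and 4.77 ± 0.53 for EGR3 (adjusted p = 7.98e-06, 1.09e-06 and 1.69e-06 by limma). For each of these genes the response was larger in size at 1 h. NR4A1, an orphan receptor gene induced by antigen receptors, was at -2.02 ± 0.12 at 1 h and -0.42 ± 0.12 at 3 h. Its 3 h call (adjusted p = 0.0181) was lost without CSKi replicate 2 (0.0822), DMSO replicate 1 (0.052) or DMSO replicate 2 (0.145). NAB2, a corepressor of EGR factors, fell at 1, 3 and 6 h (-0.93, -0.90 ± 0.15 and -0.65). The MAP kinase phosphatase gene DUSP2 was at -0.997 at 1 h and -0.11 ± 0.12 at 3 h, and 0 of 3 tested ERK feedback genes were called at 3 h by limma. Among these, the RAS pathway inhibitor gene SPRED2 (0.36 ± 0.13, adjusted p = 0.0643), was higher at an unadjusted p under 0.05 and by voom. The mRNA decay genes ZFP36 (-0.82) and ZFP36L1 (-1.16) fell at 1 h and did not pass at 3 h (-0.11 ± 0.06 and -0.07 ± 0.05).

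Over all genes, the responses at 3 h and 1 h differed for 641 (5.54%), 352 higher (3.04%) and 289 lower (2.5%) at 3 h. Of the 873 genes that rose at 3 h, 50 had also risen at 1 h (5.73% of the 873 and 51% of the 98 risen at 1 h). Of the 874 that fell, 49 had also fallen at 1 h (5.61% of the 874 and 33.1% of the 148). The calls were opposite for 4 risen genes and 1 fallen gene. PMAIP1 fell at 1 h (-0.47) and rose at 3 h, and so did RGS2 (-1.15) and RGS16 (-0.32). TAGAP rose more at 1 h (1.34) than at 3 h (0.89, adjusted p of the difference 0.000123 by limma). Of the 31 amino acid response genes, 10 responded differently at 3 h and 1 h, among them WARS, at -0.01 at 1 h (adjusted p of the difference 0.000133). Without DMSO replicate 1 the counts were 208 higher and 134 lower, and without DMSO replicate 2 the lower count was 191.

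**Figure D4:**
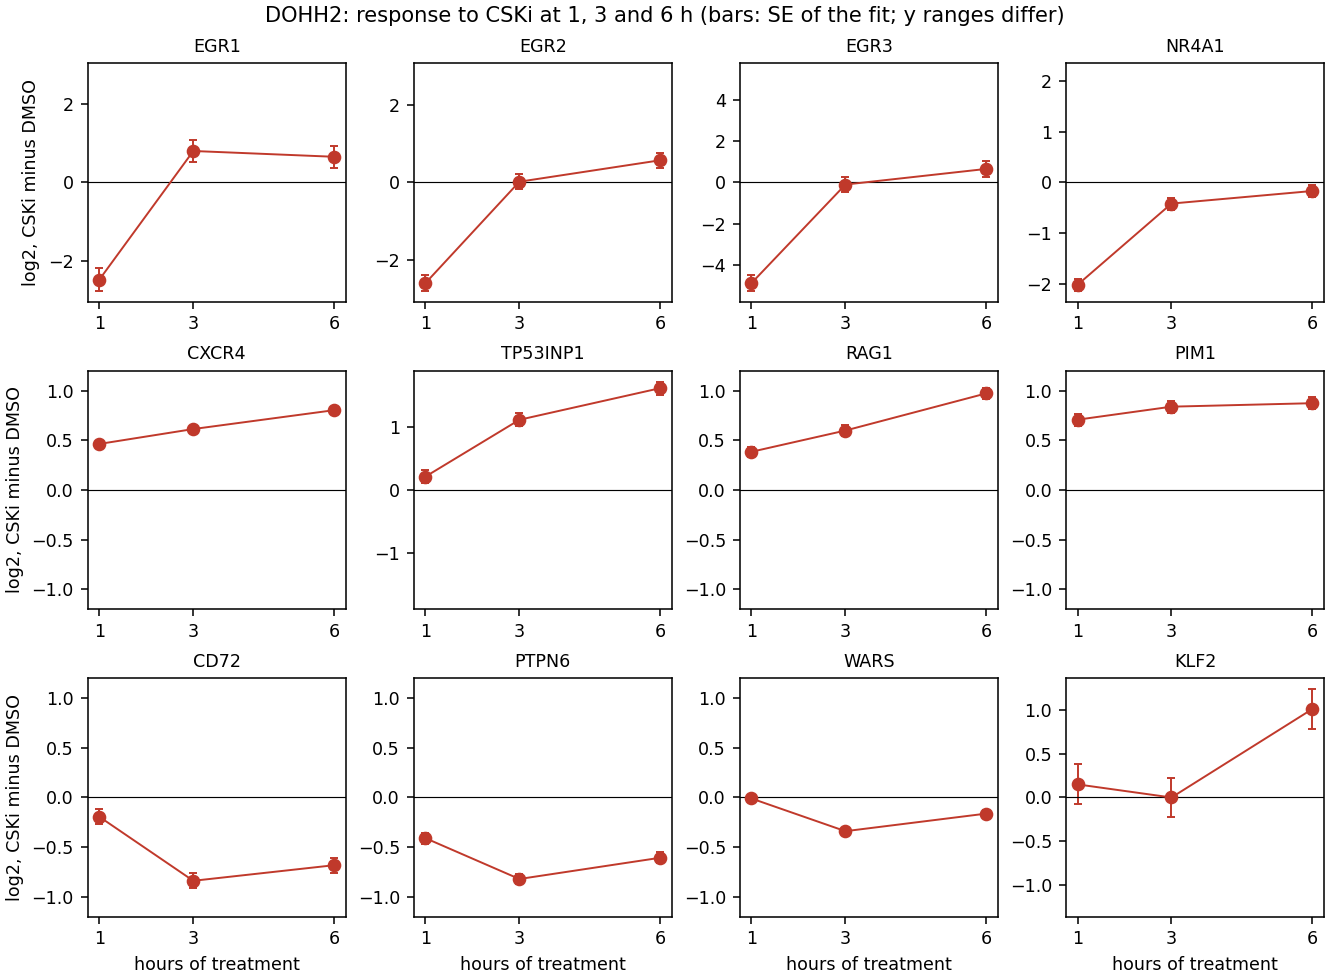
Log2 difference between CSKi and DMSO (vertical axis, ± SE of the fit) in DOHH2 at 1, 3 and 6 h (horizontal axis) for 12 genes, with 2 libraries per treatment and time. EGR1, EGR2, EGR3 and NR4A1 have their lowest values at 1 h, WARS has its lowest at 3 h, and RAG1 and CXCR4 have their highest at 6 h.

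At 6 h, 840 genes rose (7.26%) and 813 fell (7.03%). Of the genes that rose at 3 h, 420 rose at 6 h, which is 48.1% of the 873 and 50% of the 840, and 5 fell. Of the genes that fell at 3 h, 311 fell at 6 h, 35.6% of the 874 and 38.3% of the 813, and 16 rose. As a description across the 1747 called genes, which are not independent and were chosen on the 3 h values, the differences at 3 h correlated with those at 6 h with r = 0.775 and with those at 1 h with r = 0.389. Over all 11571 tested genes these were 0.47 and 0.176. No library is shared between the times. CXCR4 was at 0.46, 0.61 and 0.80 at 1, 3 and 6 h, and RAG1 at 0.38, 0.60 and 0.97. Both responses were smaller at 3 h than at 6 h (adjusted p = 0.00825 and 0.00537 by limma).

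Of 31 amino acid response genes, 5 fell and 1 rose at 6 h, beside 7.03% fallen and 7.26% risen over all genes tested. AARS was at 0.07 at 6 h (adjusted p of the difference from 3 h 0.000334 by limma). HSPA8 was at -0.49 at 3 h and -0.24 at 6 h (0.00133), and SOS1 at -0.39 and -0.03 (0.00223). MYC was at -0.34 at 6 h (0.000755), when 22 of 30 members of its list fell, a count whose difference from 3 h was not tested. The FOXO list had 11 risen and 0 fallen at 6 h. Differences of the amino acid and FOXO list counts from 3 h were not tested either. In all, 262 genes (2.26%) responded differently at 3 h and 6 h, 98 higher (0.847%) and 164 lower (1.42%) at 3 h. These counts were 47 and 88 without DMSO replicate 1, 41 and 77 without DMSO replicate 2, and the lower count was 102 without CSKi replicate 1.

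The 3 h response of DOHH2 differed from that of TMD8 for 681 genes (5.89%), 363 higher (3.14%) and 318 lower (2.75%) in DOHH2. The higher and lower counts were 283 and 491 when libraries were scaled to total mapped reads. The level filter used DOHH2 libraries only, so these counts include genes with almost no reads in TMD8. CA6, counted as higher, had 0 and 0 reads with CSKi and 1 and 1 with DMSO in TMD8. Of the 11571 genes tested, 252 rose (2.18%) and 429 fell (3.71%) in TMD8. Of the 873 genes that rose in DOHH2, 97 rose in TMD8 (11.1% of the 873 and 38.5% of the 252) and 27 fell. Of the 874 that fell in DOHH2, 123 fell in TMD8 (14.1% of the 874 and 28.7% of the 429) and 11 rose. Both totals include genes with almost no reads in TMD8, where a change could hardly be called. GIMAP4, among the 873, had 0 reads in each TMD8 library at 3 h. FOXO6, among the 874, had 5 and 5 reads with CSKi and 4 and 3 with DMSO in TMD8. The count of higher differences was 212 without DMSO replicate 1 of DOHH2. That of lower ones was 178, 174 and 204 without CSKi replicate 1, DMSO replicate 1 and DMSO replicate 2 of DOHH2.

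CD69 moved in opposite directions in the lines. It rose in DOHH2, and in TMD8 it had 12 and 14 reads with CSKi and 51 and 47 with DMSO (-2.09 ± 0.13). The responses differed by 2.96 ± 0.18 (adjusted p = 1.98e-09 by limma). EGR2, at 0.02 in DOHH2 at 3 h, had 13 and 23 reads with CSKi and 371 and 327 with DMSO in TMD8 (difference of the responses 4.53 ± 0.30, adjusted p = 2.74e-09). LAIR1, PIK3CG and RGS2 rose in DOHH2 and fell in TMD8 (-1.13, -0.36 and -0.70, adjusted p of the differences 6.79e-05, 4.59e-07 and 4.59e-07).

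Several changes of DOHH2 were smaller or not called in TMD8, with a tested difference. C13orf18 was at 0.88 in DOHH2 and 0.14 in TMD8 (adjusted p of the difference 1.98e-09 by limma). SLC7A5 was at -0.44 and 0.03 (5.9e-07), and 9 of 31 amino acid response genes differed between the lines. PTPRE was at 0.58 in DOHH2 and -0.06 in TMD8 (4.58e-05). CD79B was at 0.43 and 0.08 (0.000171).

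PTPN6, CXCR4 and DOK3 changed in both lines. Their TMD8 differences were -0.75, 0.55 and -0.20. DOHH2 minus TMD8 was -0.07 ± 0.07 for PTPN6, 0.06 ± 0.08 for CXCR4 and 0.00 ± 0.07 for DOK3, and none of these passed the test. RAG1 had 4 and 8 reads with CSKi and 4 and 6 with DMSO in TMD8, and WASF3 1 and 0 reads with CSKi and 0 and 0 with DMSO, so their responses cannot be compared between the lines.

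**Figure D5:**
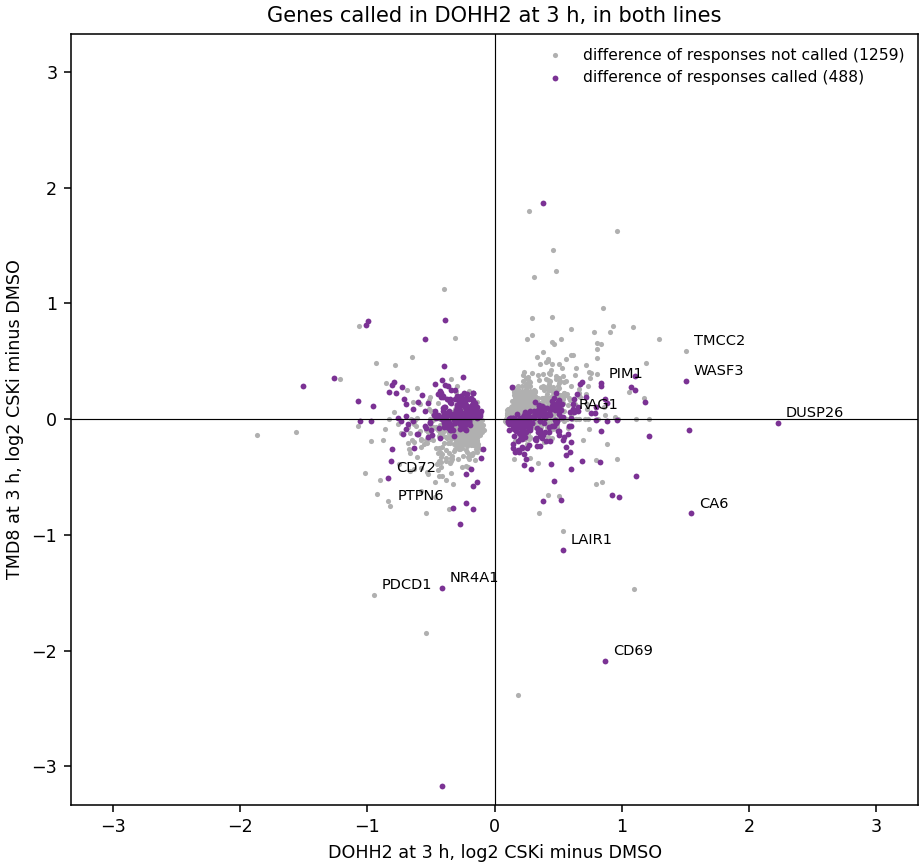
Log2 difference between CSKi and DMSO at 3 h in DOHH2 (horizontal axis) and in TMD8 (vertical axis) for the 1747 genes called in DOHH2. Purple points are the 488 genes whose responses differed between the lines and grey points the other 1259. Genes with almost no reads in TMD8 are included. CD69 lies at the lower right and PTPN6 at the lower left.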

How the data were processed

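RNA was extracted with RNeasy from cells grown in advanced RPMI with 5% FBS, and TruSeq stranded mRNA libraries were read as paired ends, per the labels' protocols. Reads were counted with HTSeq on hg19, per the submitters' processing notes. The aligner, its version and the strand setting were not given in the sources used here, so overlapping and antisense genes may share reads. The values the authors deposited are log2 of counts scaled library by library, and 0 where a feature had no read, as inspection of the numbers shows, and how the factor was derived is not given. They were fitted with limma 3.58.1 (R 4.3.3) as group means over the 12 DOHH2 libraries at 1, 3 and 6 h (6 residual degrees of freedom), with a variance trend. The contrast of lines used 24 libraries (12 residual degrees of freedom). P-values were adjusted by Benjamini-Hochberg over 11571 genes. Since the unit is not a count, voom on reads recovered from the values served as an alternative in place of a count test. The members and gene lists were chosen with earlier results of these data known. Named genes are the 10 largest changes each way with separated pairs, up to 4 genes per list with the smallest p, CSK and LYN, and the 3 largest differences of responses each way. A few genes that these rules or the lists name, and 1 promoter, are not reported here. Other named genes were chosen after their values were seen, for their roles or for small p. Promoters came from RefSeq (GRCh38.p14). Python 3.11.15, pandas 2.3.3, numpy 2.4.6 and matplotlib 3.10.9 were used.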

Additional observations from a re-analysis of the deposited data

Results flagged for a closer look

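Each result here is a response that differed between times or lines by limma's test of the difference itself, and is among the 3 largest each way for its contrast. Of the responses at 3 h minus those at 1 h, EGR3 (4.77 ± 0.53, adjusted p = 1.69e-06), EGR1 (3.29 ± 0.41, adjusted p = 7.98e-06) and EGR2 (2.63 ± 0.28, adjusted p = 1.09e-06) had the largest positive values. The largest negative values were for LOC728888 (-2.35 ± 0.47, adjusted p = 0.00259), LRRN3 (-1.62 ± 0.30, adjusted p = 0.000982) and BSPRY (-1.20 ± 0.29, adjusted p = 0.0121).

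Of the responses at 3 h minus those at 6 h, LOC100288299 (3.24 ± 0.82, adjusted p = 0.0346), the pseudogene PKD1P1 (1.77 ± 0.44, adjusted p = 0.0295) and BHLHE40, a circadian repressor gene (1.07 ± 0.28, adjusted p = 0.0408), had the largest positive values. LOC100288299 had 3 h values of 8.75 and 8.498 with CSKi and 6.68 and 9.03 with DMSO, so its DMSO libraries differed widely, and PKD1P1 is near-identical to other copies that can share its reads. The largest negative values were for LOC284749, now LINC00494 (-1.8 ± 0.47, adjusted p = 0.0408), LOC100288684 (-1.42 ± 0.34, adjusted p = 0.0211) and C12orf59, now TMEM52B (-1.40 ± 0.33, adjusted p = 0.0206).

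Of the responses in DOHH2 minus those in TMD8 at 3 h, EGR2 (4.53 ± 0.30, adjusted p = 2.74e-09), EGR1 (3.17 ± 0.32, adjusted p = 1.24e-06) and CD69 (2.96 ± 0.18, adjusted p = 1.98e-09) had the largest positive values. EGR1 had few reads in DOHH2 at 3 h, and EGR2 and CD69 had few with CSKi in TMD8, as given above. The largest negative values were for C12orf53, now PIANP (-2.17 ± 0.59, adjusted p = 0.0309), the kinesin gene KIF5C (-2.08 ± 0.59, adjusted p = 0.042) and C1orf161, now MAB21L3 (-1.84 ± 0.41, adjusted p = 0.00854). These 3 had few reads in TMD8: C12orf53 had 3 and 9 reads with CSKi and 1 and 2 with DMSO, KIF5C had 4 and 4 reads with CSKi and 0 and 1 with DMSO and C1orf161 had 11 and 9 reads with CSKi and 6 and 4 with DMSO.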

How the results depend on the processing

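The counts of genes that rose and fell at 3 h, 873 and 874, were 149 and 169 with the spread taken from all 16 DOHH2 libraries, 24 h included, 552 and 502 with no variance trend, 547 and 471 at an adjusted p under 0.01, and 104 and 72 with a 1.5-fold minimum. When 1 library was left out they ranged from 513 to 661 and from 451 to 681. With quantile normalization (800 and 883) and voom (747 and 1066) the counts stayed within 1.5 times the reported ones, as with no filter (663 and 633), a mean of 7 or more, a pseudocount of 16 and a robust variance model. When 1 library was left out, the higher and lower counts ranged from 208 to 307 and 134 to 264 for 3 h against 1 h, from 41 to 120 and 77 to 210 for 3 h against 6 h, and from 212 to 275 and 174 to 282 for DOHH2 against TMD8, where 491 genes were lower when scaled to total mapped reads. The cause of these shifts was not tested, beyond the fewer libraries. Same-numbered libraries did not deviate together (correlations 0.033, 0.039 and 0.08 at 1, 3 and 6 h), so the numbers are not taken as pairs. With the replicate number as a block, the counts were 1028 and 1063 at 3 h, 458 and 435 against 1 h, 199 and 298 against 6 h, and 406 and 388 against TMD8. NPM1 reversed under quantile normalization, at -0.015, and the cause was not tested. The lowest tested mean, 22.2 reads per library, limits what small changes could be seen in low genes.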
